A study of Mus musculus with 4 samples.

Results

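The subject is the myosin heavy and light chain genes Myh6, Myh7, Myl1, Myl2, Myl3, Myl4, Myl6 and Myl7 in the embryonic mouse atrioventricular canal (AVC), the narrow segment between the atria and the ventricles that forms the cushions of the valves. Every non-control probe that carries 1 of these 8 gene names was taken, whatever its value. This gave 14 probes of the 41174 on the array, for 8 of 27670 named genes, with 2 probes each for 6 genes and 1 each for Myl2 and Myl7. All 14 passed the filter on dim probes, well above background in all 8 channels.

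The tested pools came from Tbx3 mutant embryos and the pools set against them from wild type controls, all at e10.5 (midgestation). Both groups are on a mixed background that the labels write as 50%Sv129; 50% C57Bl6, and the tissue is labelled heart AVC. Each pool holds the AVC of 5 hearts, and each of the 4 arrays carried 1 mutant pool in Cy5 (red) and 1 control pool in Cy3 (green), 4 biological replicates in all. The dyes ran the same way on all 4 arrays, so a dye effect on a probe and the genotype cannot be told apart. The structure of the mutant allele is not given in the labels, and pooling leaves no value for a single embryo. A tissue ratio, moreover, cannot tell more muscle cells from more RNA per cell.

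Myosin is the motor of the thick filament. Each motor joins a pair of heavy chains, which split ATP and pull on actin, with essential and regulatory light chains that brace the lever arm. In the adult mouse heart Myl7 (regulatory) and Myl4 (essential) mark atrial muscle, whereas Myh6 (alpha heavy chain) is made in both atria and ventricles. Myh7 (beta heavy chain), Myl2 (regulatory) and Myl3 (essential) mark ventricular and slow muscle in development or later life. The early heart tube makes several of these chains together before the chambers separate. Myl1 is the essential light chain of fast skeletal muscle, and Myl6 serves smooth muscle and non-muscle myosin. Tbx3 is a T-box repressor of the AVC and conduction system that restrains the chamber muscle programme.

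The array measures each chain through 60-base probes, and the place of a probe in its transcript bears on how far a pair of probes counts as separate evidence. Probe positions are on mouse build mm7, as the files name it, for which no annotation of exons or untranslated regions was used here. The Myh7 probes (chr14:49837275-49837334 and chr14:49837280-49837339, minus strand) overlap by 55 bases and both hold the stretch below, in which capitals mark the polyadenylation signal. The single Myl7 probe (chr11:5848640-5848699, minus strand) holds the same signal, also in capitals.
Myh7: aggtggaagcagAATAAAgcaattttcctt
Myl7: tgaggtcacctcAATAAActctgtgcctga

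The Myl4 probes (chr11:104693149-104693519 and chr11:104693162-104693532, plus strand) share 47 bases, which are in capitals below. Their 60 bases spread over 371 bases of genome, so both cross a splice junction. Their readings are near repeats of each other rather than independent measures of the gene.
Myl4 probe 1: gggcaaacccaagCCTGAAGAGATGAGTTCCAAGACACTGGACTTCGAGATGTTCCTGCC
Myl4 probe 2: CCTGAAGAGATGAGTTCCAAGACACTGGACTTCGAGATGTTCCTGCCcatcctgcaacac

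The Myh6 probes share no base with each other. The first lies at chr14:49813005-49813064 and the second at chr14:49811341-49812926, minus strand, across 1586 bases of genome. Heavy chain genes are close relatives in sequence, and whether these probes also bind RNA of another heavy chain was not tested.
Myh6 probe 1: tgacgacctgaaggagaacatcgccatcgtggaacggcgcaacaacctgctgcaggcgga
Myh6 probe 2: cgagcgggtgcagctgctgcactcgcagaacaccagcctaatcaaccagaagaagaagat

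The Myl3 probes also share no base and lie apart in the gene, at chr9:110466830-110467124 (probe 1, across 295 bases) and chr9:110461523-110461582 (probe 2), plus strand. They are shown because they differ most in brightness among the cardiac chains.
Myl3 probe 1: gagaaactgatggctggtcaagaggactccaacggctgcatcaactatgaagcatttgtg
Myl3 probe 2: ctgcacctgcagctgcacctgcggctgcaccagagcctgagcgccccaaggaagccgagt

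Of the other probes, the Myl2 probe lies at chr5:121338175-121339125 on the plus strand. The Myl1 probes lie at chr1:67164082-67164141 and chr1:67169987-67174234, and the Myl6 probes at chr10:127992586-127992645 and chr10:127992618-127992677, all on the minus strand.

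As a check of the labels, the brighter Tbx3 probe read -1.35, -1.40, -1.43 and -1.21 on arrays 1 to 4, a log2 ratio of mutant over control of -1.35 ± 0.10 (SD, n = 4). It was lower in all 4 mutant pools, with an adjusted p of 0.0505 from limma, the test used throughout, over 28806 probes. A dim second Tbx3 probe read -0.14 ± 0.12. Array 2 stood apart in leukocyte markers, whose median log2 ratio was -1.32 there and -0.18 to 0.14 on the other 3 arrays, so values without replicate 2 are given beside the results that rest on it. Median spot signals were 175.1 to 232.5 in the mutant channel and 117.9 to 133.5 in the control channel before normalization. Log2 ratios below were taken after background correction and a loess curve within each array. A is the mean log2 intensity of both channels.

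The cardiac chains and Myl6 leaned towards the mutant, but no myosin probe passed the threshold of an adjusted p of 0.05. In limma's test 0 of 14 probes passed, as did 0 of all 28806 probes kept (0%; 3948 or 13.7% had an unadjusted p under 0.05), with adjusted p values from 0.111 to 0.945 for the 14. At an unadjusted p under 0.05, 11 of the 14 were higher in the mutant, against 7.55% of all probes. All 14 had a positive mean ratio, against 53.3% of all, and 10 were higher on every array, against 13%. The median of the 14 mean log2 ratios was 0.58, and that of all kept probes was 0.01. In 9 of 14 probes the 4 mutant levels all lay above the 4 control levels, against 3.89% of all probes. The counts are of probes, and the pairs for Myh7, Myl4 and Myl6 overlap in sequence, so they are not independent. With 1 probe a gene, or the mean of a gene's probes, 0 myosins passed in limma's test.

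These counts belong beside the brightness of the probes, because very bright probes in general read high in the mutant channel. The median A of kept probes was 9.24, and 10 of the 14 myosin probes had an A of 16 or more, a range that holds 331 probes. Among those 331 probes 65.6% were higher on every array, against 9 of the 10 myosin probes. Groups lay apart with the mutant higher in 58.9% of the 331 probes and in 8 of the 10 myosin probes. At this brightness the counts of direction alone therefore separate the myosins little from other bright probes, and the size of each ratio has to be read against them. In all 8 channels the spots of 12 of the 14 probes were readings of the low-gain scan that the scanner software scales up, none was saturated, and what part this reading plays in the ratio was not tested.

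**Figure D1:**
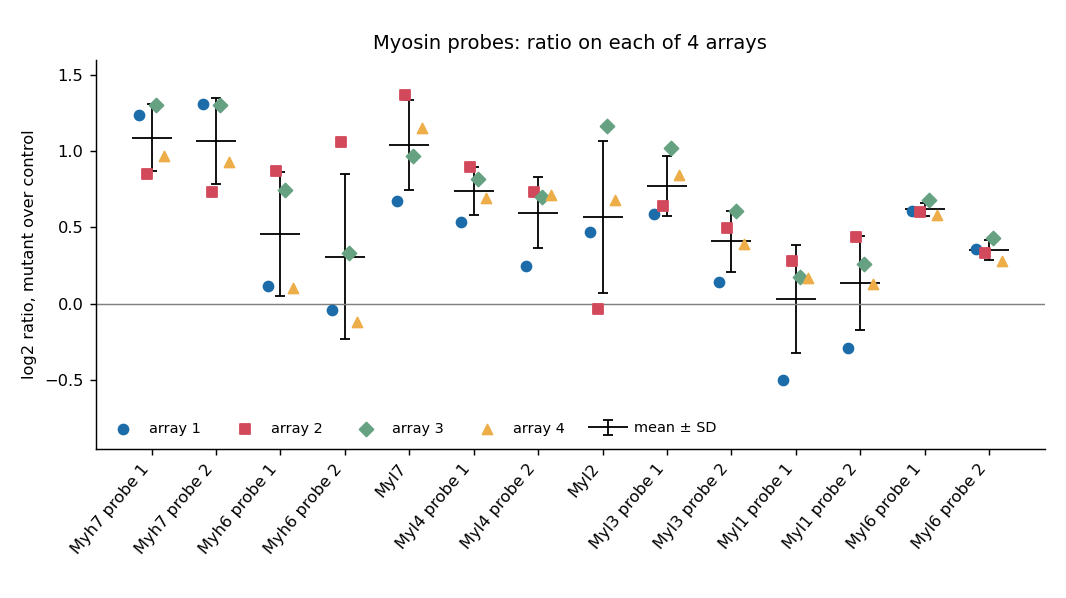
Log2 ratio of mutant over control (vertical axis) for each of the 14 myosin probes (horizontal axis) on arrays 1 to 4, with bars for mean ± SD over the 4 arrays. Myh7 and Myl7 stood near 1 on average, Myh6 and Myl2 scattered widely between arrays, and Myl1 straddled 0.

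The beta heavy chain Myh7 had the highest mean ratio. Its first probe read 18.16, 17.97, 18.03 and 17.83 on the log2 scale in mutant pools 1 to 4, against 16.92, 17.12, 16.72 and 16.86 in control pools 1 to 4. Every mutant pool was above every control pool. The log2 ratio was 1.24, 0.85, 1.31 and 0.97 on arrays 1 to 4, a mean of 1.09 ± 0.22 (SD, n = 4) or 2.13-fold, with an adjusted p of 0.111 in limma's test. The second probe, which shares most of its bases, read 1.07 ± 0.28 (SD, n = 4; limma adjusted p = 0.116). The difference of the probe pair was 0.02 ± 0.08, so both gave the same size on each array within a small spread. Before normalization the first probe's spot signals were 380615 to 488191 in mutant pools, against 66760 to 80665 in control pools, a ratio of 4.84 to 6.21.

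The alpha heavy chain Myh6 was not uniform across arrays. Its first probe read 16.60, 16.90, 17.07 and 16.48 in mutant pools, against 16.48, 16.02, 16.32 and 16.38 in control pools. The groups overlapped at their edge, and the excess came mainly from arrays 2 and 3. The log2 ratios were 0.12, 0.87, 0.75 and 0.10, a mean of 0.46 ± 0.41 (SD, n = 4; limma adjusted p = 0.311). The second probe read -0.04, 1.06, 0.33 and -0.12, a mean of 0.31 ± 0.54 (SD, n = 4; limma adjusted p = 0.558). Its value on array 2 goes with a low control pool, at 14.98 against 15.79 to 15.93 in the other 3 control pools, while its mutant pools lay between 15.74 and 16.13. Without replicate 2 the probes averaged 0.32 and 0.06. For Myh6 the direction was thus shared by both probes on arrays 2 and 3 and absent or near 0 on arrays 1 and 4.

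Myl7, the regulatory light chain of atrial muscle, had the highest ratio among the light chains. Its levels were 18.02, 18.05, 17.92 and 17.88 in mutant pools, against 17.34, 16.67, 16.95 and 16.73 in control pools. The groups did not overlap, and control pool 1 stood nearest to the mutant pools. The log2 ratios were 0.68, 1.37, 0.97 and 1.15, with a mean of 1.04 ± 0.29 (SD, n = 4; limma adjusted p = 0.133). Array 2, where Myh7 was lowest, was the array where Myl7 was highest. Myl2, the regulatory light chain of ventricular muscle, read 16.87, 16.52, 17.26 and 16.98 in mutant pools, against 16.40, 16.55, 16.09 and 16.29 in control pools. Here the groups overlapped through mutant pool 2. Its log2 ratios of 0.47, -0.04, 1.17 and 0.68 averaged 0.57 ± 0.50 (SD, n = 4; limma adjusted p = 0.299). Without replicate 2 the mean was 0.77 for Myl2 and 0.93 for Myl7.

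The essential light chains of heart muscle were steadier. Myl4 probe 1 read 17.75, 17.74, 17.73 and 17.77 in mutant pools, against 17.21, 16.84, 16.91 and 17.07 in control pools. The mutant pools were nearly equal and all lay above the controls. The log2 ratio averaged 0.74 ± 0.16 (SD, n = 4; limma adjusted p = 0.116) and the overlapping probe 2 averaged 0.60 ± 0.23 (limma adjusted p = 0.161). Probe 2 read 0.25 on array 1 and 0.70 to 0.73 on the other 3, so that array set most of its spread.

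Myl3, the ventricular and slow muscle essential chain, is the gene for which probes at different brightness can be set side by side. Bright probe 1, with an A of 16.66, read 16.93, 16.94, 17.23 and 17.09 in mutant pools, against 16.34, 16.30, 16.21 and 16.25 in control pools. Its log2 ratio averaged 0.77 ± 0.20 (SD, n = 4; limma adjusted p = 0.133). Probe 2, with an A of 12.44, read 12.39, 12.53, 12.98 and 12.70 in mutant pools, against 12.25, 12.04, 12.37 and 12.31 in control pools. For both probes every mutant pool lay above every control pool. Probe 2 averaged 0.41 ± 0.20 (SD, n = 4; limma adjusted p = 0.199). The bright probe exceeded it on 4 of 4 arrays, by 0.37 ± 0.15 (exact sign-flip permutation test, 2-sided p = 0.13, the smallest that 4 arrays allow). Myl3 therefore read higher in the mutant pools both at a brightness where other probes lean to the mutant and at one where they do not.

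**Figure D2:**
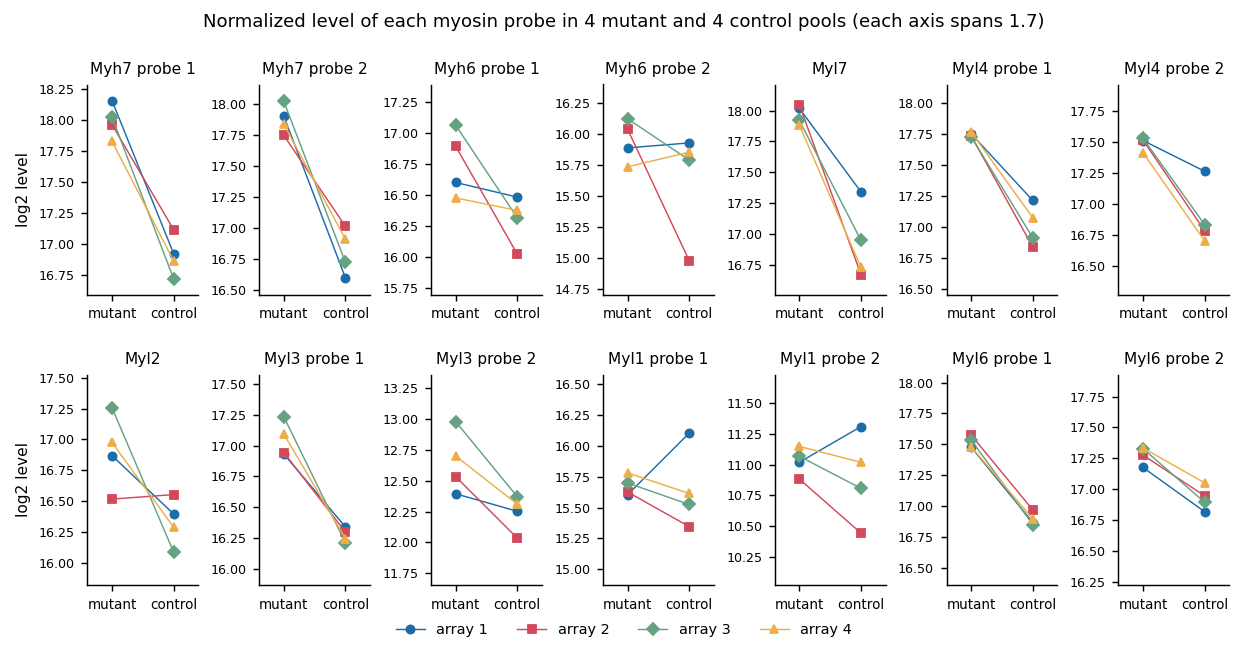
Normalized log2 level (vertical axis, the same width of 1.7 in every panel) of each myosin probe in the 4 mutant pools (left) and the 4 control pools (right), joined by array. Mutant pools lay apart from and above control pools for Myh7, Myl7, Myl4, Myl3 and Myl6, and overlapped them for Myh6, Myl2 and Myl1.

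Of the chains usually assigned to other muscle types, Myl1 averaged near 0, whereas Myl6 was higher on every array. Myl1 read -0.50, 0.28, 0.17 and 0.17 with its bright probe, a mean of 0.03 ± 0.36 (SD, n = 4; limma adjusted p = 0.945). Its dim probe, the only myosin probe with an A under 12, read -0.29, 0.44, 0.26 and 0.13, a mean of 0.13 ± 0.31 (limma adjusted p = 0.684). The probes lie far apart in the gene, yet both were lower in the mutant on array 1 and higher on the other 3. In both, control pool 1 was the highest of the 8 pools, at 16.10 against 15.35 to 15.61 in the other control pools for the bright probe. Levels of Myl1 in mutant pools lay between 15.60 and 15.78 with the bright probe. That probe had an A of 15.66. The skeletal muscle genes Myod1, Myog and Pax7 had an A of 7.08, 6.66 and 6.38, and the fast troponin gene Tnni2 13.33. Which cells gave the Myl1 signal was not tested.

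Myl6, of smooth muscle and non-muscle myosin, was the most even of all. Probe 1 read 17.48, 17.57, 17.53 and 17.48 in mutant pools, against 16.87, 16.97, 16.85 and 16.90 in control pools. Its log2 ratio averaged 0.62 ± 0.04 (SD, n = 4; limma adjusted p = 0.111). Probe 2, which shares 28 bases with it, averaged 0.35 ± 0.06 (limma adjusted p = 0.161). The probe pair differed by 0.27 ± 0.02, in the same sense on 4 of 4 arrays (exact sign-flip permutation test, 2-sided p = 0.13). Probes for overlapping sequence at nearly equal brightness thus read apart by more than the spread of their difference between arrays.

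Each probe was next set against the 200 other kept probes nearest to it in A. Near Myh7 and Myl7 these neighbours had a median log2 ratio of 0.47, with a 5th to 95th percentile of 0.01 to 0.88. The ratio of Myh7 exceeded 97.5% of its neighbours with the first probe and 97% with the second, and that of Myl7 exceeded 97%. Only 11 of the 200 neighbours of the first Myh7 probe were brighter than it, so the window leans to dimmer probes. The nonmyosin probes with an A of 17 or more, 81 in number, had a median of 0.57. Myh7 and Myl7 therefore stood above most equally bright probes.

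Myl3 stood above 97% of its neighbours with either probe, where the neighbours' medians were 0.35 for the bright probe and 0.01 for the dimmer. The dimmer probe's neighbours ranged from -0.30 to 0.33 between the 5th and 95th percentiles, and the probe itself read 0.41. Myl2 and the first Myl4 probe each exceeded 87% of neighbours, the second Myl4 probe 74.5%, and the Myh6 probes 73.5% and 86%. These probes lay within the spread of other bright probes. Myl6 exceeded 77% of neighbours with probe 1 and 37% with probe 2, and Myl1 41.5% and 75%. Myl6, although evenly higher on all arrays, was thus ordinary for its brightness.

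**Figure D3:**
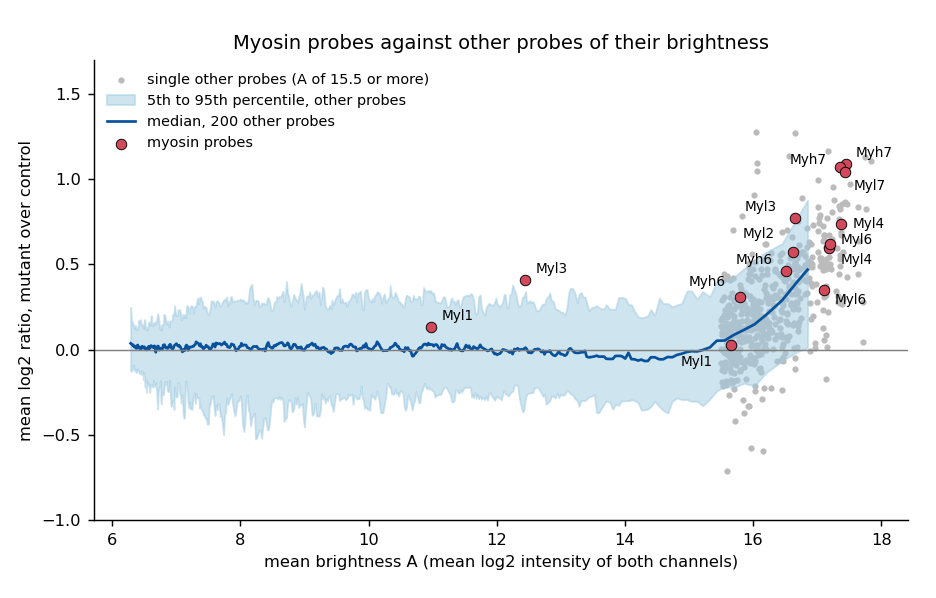
Mean log2 ratio over 4 arrays, mutant over control (vertical axis), against mean brightness A (horizontal axis). Red points are the 14 myosin probes, the line and band are the median and the 5th to 95th percentiles of windows of 200 other probes, ending at the centre of the brightest window, and grey points are single other bright probes. The median of other probes lies near 0 up to an A of about 15 and climbs above it, and Myh7, Myl7 and Myl3 lie at or above the upper edge of their surroundings.

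The same comparison was made within each array by removing the running median of the ratio over A. After this, 6 of 14 probes were higher on all 4 arrays, against 11.7% of all probes, and the median of the 14 means was 0.21. The 6 were both Myh7 probes, Myl7, both Myl3 probes and Myl6 probe 1. On array 1 Myl7 and Myl6 probe 1 were higher by only 0.09 and 0.02. Set against the median of their 100 nearest neighbours in mean A, they read -0.07 and -0.12 on that array. For the brightest probes the window is shifted inwards and leans to dimmer ones. None passed the threshold, the lowest limma adjusted p being 0.210. Means were 0.65 ± 0.18 and 0.62 ± 0.23 for Myh7, 0.60 ± 0.38 for Myl7, and 0.39 ± 0.23 and 0.44 ± 0.22 for Myl3 (SD, n = 4 each). On this scale the bright and the dimmer Myl3 probe had means within their spread, the dimmer slightly the higher. Means were 0.29 ± 0.24 and 0.15 ± 0.33 for Myl4, 0.21 ± 0.49 for Myl2, and 0.14 ± 0.41 and 0.21 ± 0.58 for Myh6. Both Myh6 probes were below 0 on arrays 1 and 4, at -0.29 and -0.09 for probe 1 and -0.21 and -0.19 for probe 2. Myl6 stood at 0.17 ± 0.11 and -0.09 ± 0.10, and Myl1 at -0.05 ± 0.41 and 0.12 ± 0.31. The median over the 14 probes was -0.03 on array 1 and 0.38, 0.37 and 0.34 on arrays 2 to 4, so array 1 gave no general excess of myosin for its brightness.

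Whether a ventricular type chain moved more than its atrial counterpart was asked for 3 pairs, within arrays, by the brightest probe of each gene. Myh6 was taken as the atrial type of heavy chain, although the adult ventricle makes it too. Myh7 minus Myh6 was 1.12, -0.02, 0.56 and 0.86 on arrays 1 to 4, a mean of 0.63 ± 0.49 (SD, n = 4; exact sign-flip permutation test, 2-sided p = 0.25, and 0.375 adjusted over the 3 pairs). It was positive on 3 of 4 arrays and near 0 on array 2. Myl2 minus Myl7 was -0.20, -1.41, 0.20 and -0.47, a mean of -0.47 ± 0.68 (exact permutation p = 0.25, adjusted 0.375), negative on 3 of 4. Array 2 set much of its size, since the mean was -0.16 without replicate 2. Myl3 minus Myl4 was 0.04 ± 0.21 (exact permutation p = 0.875, adjusted 0.875), within its spread. The paired probes differ in A, at 17.45 for Myh7 and 16.52 for Myh6, and 16.62 for Myl2 and 17.43 for Myl7. With the running median over A removed, the differences were 0.50 ± 0.47, -0.39 ± 0.67 and 0.10 ± 0.20 in the same order. With 4 arrays this test cannot go below 0.13, so no pair could have passed. The heavy chain pair and the regulatory light chain pair had opposite signs, and neither could be told from 0 by so small a test.

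Setting array 2 aside altered the calls. Without replicate 2, 6 of 14 myosin probes were past the threshold and higher (limma adjusted p 0.0346 to 0.0493), against 0.524% of all probes. They were both Myh7 probes, Myl7, the first Myl4 probe, the bright Myl3 probe and Myl6 probe 1. Over the whole array, probes at an unadjusted limma p under 0.05 rose from 3948 to 6590, which eases the adjustment. The unadjusted limma p fell for both Myh7 probes. It rose for the other called probes, as for Myl7 from 0.00018 to 0.00023 and for Myl6 probe 1 from 6.6e-05 to 0.00014. With the running median over A also removed, a setting added after the data were seen, 0 of 14 passed in limma's test, and Myh7 stood at 0.72 and 0.71. In that setting 0.132% of all probes passed as higher. When replicate 1, 3 or 4 was left out, 0 of 14 passed. The normalization of the scanner software gave smaller values for most of these chains, 0.68 and 0.60 for Myh7, 0.63 for Myl7 and 0.48 for the bright Myl3 probe. It gave 0.14 for both Myh6 probes, 0.24 for Myl2 and 0.36 and 0.18 for Myl4, and 0 of 14 passed. Median centring in place of loess put all 14 past the threshold, where 34.9% of all probes were past it and higher. The median log2 ratio of all probes was 0.21 in that setting, against 0.01 with loess.

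**Figure D4:**
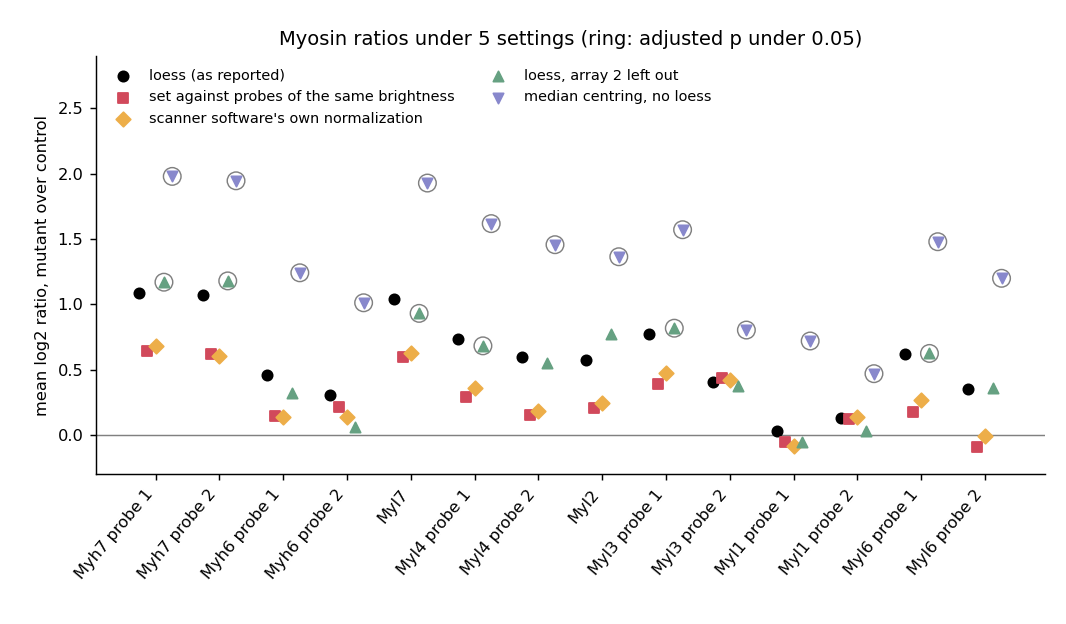
Mean log2 ratio, mutant over control (vertical axis), of each myosin probe (horizontal axis) under 5 ways of processing the same arrays, with rings where limma's adjusted p was under 0.05. Median centring without loess put all 14 probes above the threshold, and setting probes against others of their brightness, or the normalization of the scanner software, placed Myl6 probe 2 and the bright Myl1 probe below 0.

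Partners of the motor gave the surroundings of these values. Of 12 other myosin II heavy chain genes 9 passed the filter, 4 with a positive mean, with a median of -0.02. The brightest were Myh8, the perinatal heavy chain of skeletal muscle, at 0.36 ± 0.38, and Myh9, a non-muscle heavy chain, at 0.13 ± 0.55 (SD, n = 4 each). Myh8 had an A of 16.18 and stood at 0.19 against probes of its brightness. Its log2 ratios were 0.23, 0.81, 0.47 and -0.09 on arrays 1 to 4, highest on arrays 2 and 3 as for Myh6. Whether the Myh8 probe also binds RNA of another heavy chain was not tested. Of 7 other light chain genes 5 passed the filter, 4 with a positive mean, and the median was 0.15, or -0.0020 with the running median over A removed. Myl9 and Myl12b, regulatory chains of smooth muscle and non-muscle myosin, stood at 0.35 ± 0.14 and 0.30 ± 0.19, higher on 4 of 4 arrays. Both are bright, and against probes of their brightness they stood at -0.10 and 0.09.

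Of 13 thick filament partners 12 passed the filter, 8 with a positive mean and a median of 0.07. Mybpc3, the myosin binding protein of heart muscle, stood at 0.55 ± 0.17 (limma adjusted p = 0.153) and at 0.11 against probes of its brightness, and Unc45b, a myosin chaperone, at -0.14 ± 0.27. Of 11 genes for light chain kinases and the myosin phosphatase 10 passed the filter, 5 with a positive mean and a median of 0.03. Ppp1cb, the catalytic subunit of the phosphatase, stood at 0.09 ± 0.21 and Ppp1r12a, its myosin targeting subunit, at 0.40 ± 0.52. In limma's test 0 genes of these 4 lists passed the threshold. At an unadjusted p under 0.05, which 13.7% of all probes reached, the counts were 0 of 9 heavy chains, 2 of 5 light chains, both higher, and 2 of 12 thick filament partners, both higher. Among the kinases and phosphatase subunits 3 of 10 did, with mixed signs, Mylk3 at 0.32, Rock2 at 0.18 and Rock1 at -0.33. The thick filament partners that did were Mybpc3 and Mybphl. Mybphl, with an A of 10.95, stood at 0.61 ± 0.42 (SD, n = 4), and at 0.59 against probes of its brightness.

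Markers of the cell types that the dissected tissue could hold were read beside the myosins. All 8 heart muscle markers passed the filter and 7 had a positive mean, with a median of 0.36, or 0.14 with the running median over A removed. The log2 of their summed level was 19.29 to 19.45 in mutant pools, against 18.73 to 19.17 in control pools. Tnnt2, cardiac troponin T, stood at 0.60 ± 0.17 and Actc1, cardiac actin, at 0.57 ± 0.47, while Nkx2-5, a transcription factor of all heart muscle, stood at -0.08 ± 0.09. Against probes of their brightness these genes stood at 0.16, 0.21 and -0.01, so the contrast between the bright contractile genes and the dimmer Nkx2-5 was smaller on that scale. What part a change in the amount of muscle has in the myosin ratios was not tested.

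Of the 6 atrial markers 3 had a positive mean (median 0.03), with sums of 16.18 to 17.60 in mutant pools, against 15.87 to 16.25 in control pools. Nppa, the atrial natriuretic peptide, stood at 1.28 ± 0.83. Bmp10 stood at 0.28, Sln at 0.08, Tbx5 at -0.03, Nr2f2 at -0.21 and Nr2f1 at -0.26. Nppa had an A of 16.04 and the others 13.36 or less, so it weighed most in the sum. Of the 4 ventricular markers 3 were positive (median 0.32), with sums of 14.36 to 15.44 in mutant pools, against 13.98 to 14.37 in control pools. Nppb stood at 1.57 ± 0.79, Mycn at 0.44, Hey2 at 0.21 and Irx4 at -0.24. Of 9 skeletal muscle markers 6 passed the filter and 4 were positive (median 0.04), with sums of 13.46 to 14.18 in mutant pools, against 12.97 to 13.37 in control pools. Among the defining skeletal genes, Myod1, Myog and Pax7 had an A of 7.08, 6.66 and 6.38, near the dim end of the array, and Myf5, Myf6 and Pax3 did not pass the filter. The fast troponin genes Tnni2 and Tnnt3 of the same list stood at 0.86 ± 0.46 and 0.49 ± 0.36 (SD, n = 4 each). Both were higher on 4 of 4 arrays, as were 13% of all probes. Myod1 stood at 0.08, Myog at -0.0095, Pax7 at 0.0012 and Ckm, with an A of 6.87, at -0.0021. Smooth muscle markers (5 of 5 measured, 4 positive, median 0.30) summed to 18.03 to 18.22 in mutant pools, against 17.83 to 17.87 in control pools, and their median was -0.04 with the running median over A removed. Their part in the Myl6 ratio was not tested.

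The 5 cushion mesenchyme markers all had a negative mean (median -0.41), with sums of 14.78 to 15.08 in mutant pools, against 15.11 to 15.99 in control pools. The share of muscle and cushion in a pool was not measured, and its part in the myosin ratios was not tested. Endocardial markers (6 of 6 measured, 3 positive) had a median of 0.00 and summed to 14.27 to 14.43 in mutant pools, against 14.27 to 14.41 in control pools. Epicardial markers (5 of 5 measured, 4 positive, median 0.14) summed to 14.36 to 14.86 in mutant pools, against 14.08 to 14.25 in control pools. Of these Krt19 stood at 1.38 ± 0.49 and the rest between -0.03 and 0.28. Erythroid markers (5 of 5 measured, 4 positive, median 0.84) summed to 19.42 to 20.03 in mutant pools, against 17.98 to 19.33 in control pools, with list medians of 1.97, 0.99, -0.22 and 0.11 on arrays 1 to 4, and their median was 0.41 with the running median over A removed. Leukocyte markers (4 of 4 measured, 0 positive, median -0.52) summed to 12.78 to 13.24 in mutant pools, against 13.13 to 15.22 in control pools, with list medians of 0.14, -1.32, -0.13 and -0.18 on arrays 1 to 4. Array 2 carried most of it, with Ptprc, the pan-leukocyte surface phosphatase, at -3.68 there. In limma's test 0 markers passed the threshold. Over arrays, the erythroid median was highest on array 1, where the myosin median for its brightness was lowest (-0.03). It was also high on array 2 (0.99), where that myosin median was highest (0.38). Both Myh7 probes and Myl2 were lowest for their brightness on array 2. The part of erythroid cells in the myosin ratios was not tested.

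Over the 4 arrays, the probes of other genes closest in pattern to a myosin were found by the root mean square difference of log2 ratios among 24932 probes, a description that rests on 4 values a probe. The measure takes in the size of a ratio as well as its course over arrays, and very bright probes read high in general. What part shared brightness has in these matches was not tested. For Myh7 these were Ankrd1, a stretch-responsive muscle gene (0.13), and the glycolytic enzymes Aldoa (0.17) and Ldha (0.21), at an A of 16.06, 17.51 and 17.17. For Myl7 they were Snrpd3 (0.19), Tesc (0.20) and Slc25a4, the adenine nucleotide carrier of muscle mitochondria (0.24), at an A of 14.48, 12.23 and 17.43. For Myl4 the third closest was Tnnt2 (0.14), after Elf2 (0.10) and Fcmr (0.11). For Myh6 they were Hddc3 (0.12), Prmt8 (0.12) and Tcf20 (0.13), for Myl2 Mgarp (0.11), Ccdc58 (0.15) and Pcgf5 (0.16), and for Myl3 A530058N18Rik (0.09), Elf2 (0.13) and Jmjd6 (0.14). For Myl6 they were Atp5b (0.03), Izumo4 (0.04) and Atp5a1 (0.06), at an A of 17.24, 8.78 and 17.11. For Myl1 they were Tbx20 (0.06), Sugt1 (0.08) and Actn3 (0.09).

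Since Tbx3 binds T-box elements, the 250 bases before each RefSeq start (build GRCm38.p6) were searched on both strands in all 8 genes, which have 11 such windows among 32851. The T-box core GGTGTGA was in 0 of the 11 windows and in 3.33% of all windows. The letters CATTCC, an M-CAT element bound by TEAD factors, were in 5 of the 11 windows and in 12.6% of all. A CArG box, the site of serum response factor, was in 3 of 11 (Myl3, Myl6 and Myl7) against 1.47%, and an E-box CANNTG in 9 of 11 against 66.2%. TATAAA was in 2 of 11 against 12.4%, AGATAA of GATA factors in 1 of 11 (Myl2) against 9.99%, and the MEF2 site in 0 of 11 against 2.92%. A MEF2 site or CArG box can contain TATAAA, and the other motifs share no full match.

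The windows of the heavy and the light chain with the highest ratios are printed below, Myh7 at chr14:54994550-54994799 and Myl7 at chr11:5898783-5899032, both on the minus strand and from RefSeq. Capitals mark matches to the motifs searched, which are an E-box pair in Myh7, and an E-box, CATTCC and a CArG box in Myl7. Myh7 has a second RefSeq start, whose overlapping window (chr14:54994627-54994876) holds 1 match to CATTCC, on the other strand, and 1 E-box. A match is a run of letters and says nothing of binding in this tissue, and the lack of one says only that these letters are not in the window.
Myh7: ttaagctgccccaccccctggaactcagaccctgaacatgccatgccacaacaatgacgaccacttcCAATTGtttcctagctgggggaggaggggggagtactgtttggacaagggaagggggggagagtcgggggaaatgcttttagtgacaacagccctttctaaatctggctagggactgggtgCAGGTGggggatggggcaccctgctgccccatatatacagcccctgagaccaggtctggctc
Myl7: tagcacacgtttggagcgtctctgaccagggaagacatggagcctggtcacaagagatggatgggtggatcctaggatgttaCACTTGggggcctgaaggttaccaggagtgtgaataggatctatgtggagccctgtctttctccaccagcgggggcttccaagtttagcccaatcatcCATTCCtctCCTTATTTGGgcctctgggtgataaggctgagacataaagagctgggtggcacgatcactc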

How the data were processed

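The members and the gene lists were chosen with earlier results of these data known. Spots were read with Agilent Feature Extraction 9.5.1, per the submitters' processing notes. The authors deposited each spot's intensity per channel as mean signal with the median of the local background, and a processed signal that the software corrected for background and dye. They also deposited a log10 ratio with the mutant (red) on top, which the series table repeats to within 5e-07, so its scale and direction are known. The number of arrays limits the precision.

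Intensities were corrected by normexp with an offset of 50, then normalized within arrays by loess, control spots having weight 0 and non-uniform spots being dropped (limma 3.58.1 in R 4.3.3). A probe was kept where 1 channel or more stood well above background on 3 arrays or more, which left 28806 of 41174. The limma fit (lmFit, eBayes) asked whether the mean ratio differed from 0, 2-sided, and p values were adjusted by Benjamini-Hochberg over every kept probe, with a threshold of 0.05. An array pairs mutant and control pools of the same number, so the pairing is part of the ratio. Of each partner list, since 0 genes passed, the 2 with the highest A are named, with each gene described by its brightest probe. Tbx3, all 14 myosin probes and, for each myosin, the 3 probes closest in pattern complete the rule. Marker genes named singly, and partners named for an unadjusted p under 0.05, were chosen after their values were seen. Probes with an A of 12 or more were called bright. Neighbours, patterns and motifs were computed with pandas 2.3.3 in Python 3.11.15. Scripts were tested on simulated data. Alternatives were other background corrections, normalizations, filters, probe rules and variance models, and leaving out each replicate.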

Additional observations from a re-analysis of the deposited data

Results flagged for a closer look

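In 45 groups of 4 values from the 14 probes and the chain pairs, the highest or lowest value was tested for a large gap to the rest, and 4 groups had one, where chance gives about 1 in 20. The second Myh6 probe read 14.98 in control pool 2 on the log2 scale, against 15.79 to 15.93 in the other 3 control pools. The second Myl4 probe had a log2 ratio of 0.25 on array 1, against 0.70 to 0.73 on the other 3 arrays. The same probe read 17.42 in mutant pool 4, against 17.51 to 17.53 in the other mutant pools, a small gap in a very narrow group. The bright Myl1 probe had a log2 ratio of -0.50 on array 1, against 0.17 to 0.28 on the others. Array 1 or 2 holds 3 of these 4 values.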

How the results depend on the processing

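Counts of calls depended on processing. Over all probes 0 passed the threshold, and 1 passed with the processed signals, the series table, no filter, the stricter filter, the running median removed or 1 probe a gene. Median centring without loess gave 10817 probes (10065 higher, 752 lower, median of all probes 0.21, of the myosins 1.41) and 14 myosin probes. It leaves in each array the trend of ratio over brightness that loess removes only in part. After loess, nonmyosin probes with an A of 17 or more still had a median log2 ratio of 0.57. Leaving out 1 replicate gave 0 to 207 probes and 0 to 6 myosin probes, the 207 (151 higher, 56 lower) and 6 without replicate 2. Without replicate 2 and with the running median removed, an alternative added after the data were seen, 57 probes passed (38 higher, 19 lower) and 0 myosin probes. With the 8 channels fitted without the pairing (no replicate block), 160 probes (115 higher, 45 lower) and 6 myosin probes passed, these 6 at a limma adjusted p of 0.00780 to 0.0244. The pools are paired by the array they share. The cause of these differences was not tested.

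Of single probes, the Myl1 probe A_51_P416858 turned negative with the processed signals and the series table (-0.081 in both), with the running median removed (-0.053, and -0.15 also without replicate 2) and in 3 of 4 leave-outs, which ran from -0.053 to 0.21. The Myl6 probe A_51_P243727 turned to -0.0047 with the processed signals and the series table, to -0.093 with the running median removed and to -0.10 also without replicate 2. In that last setting the Myh6 probes stood at -0.0086 and -0.064. Myl3 minus Myl4 was -0.047 under median centring and ran from -0.018 to 0.13 in leave-outs. With 100 or 400 neighbours in place of 200, the distance from the neighbours' median moved by more than 1 SD for Myl4 probe 1 and both Myl6 probes. With 100, Myl7 and Myl6 probe 1 were no longer above that median on array 1. Leave-outs ran from 1.02 to 1.17 for Myh7 probe 1, 0.93 to 1.16 for Myl7, 0.32 to 0.58 and 0.058 to 0.45 for the Myh6 probes, 0.37 to 0.77 for Myl2 and -0.69 to -0.16 for Myl2 minus Myl7. All 14 probes were well above background in all 8 channels, and the number of arrays limits the precision.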
